A study of Mus musculus with 16 samples.

Results

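Keratins 7, 8, 18 and 19 are the principal keratins of simple, single-layered epithelia, and they were followed here over all 16 arrays of a series on the differentiation of mouse embryonic stem (ES) cells. Every probe of the deposited table whose target name was KRT7, KRT8, KRT18 or KRT19 was taken, which gave 4 probes for 4 genes among 45281 probes and 30854 target names. All 4 probes passed the filter on detection described below, together with 14829 genes in all, and each gene was detected on at least 1 whole group of arrays. A probe named KRT2-8, an older name of Krt8, lay outside this choice and was detected on 1 of the 16 arrays, a co-culture with BMP4.

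Keratins are intermediate filament proteins that assemble as obligate pairs of a type I and a type II chain. KRT8 (type II) and KRT18 (type I) form the first keratin pair of the mouse embryo and are found in the trophectoderm and in simple epithelia, KRT7 is a further type II keratin of ducts, glands and trophoblast, and KRT19 is a short type I keratin found in many simple epithelia and in the periderm. Stratified epithelia such as the epidermis use other pairs, among them KRT5 with KRT14, while mesenchymal and neural cells carry vimentin, desmin, nestin or neurofilaments in place of keratins.

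The ES cells carried EGFP knocked in under the tau promoter and were grown for 7 days in contact with PA6, a bone marrow stromal line of the mouse, in serum-free N2B27 medium. The 7 co-culture arrays were 2 with no growth factor added (-GFs), 3 with recombinant FGF2 at 20 ng/ml and 2 with recombinant BMP4 at 10 ng/ml, and the methods of the study give a lower BMP4 dose. The 9 PA6 mono-cultures, which held the stromal line alone, comprised 3 arrays each of -GFs, FGF2 and BMP4 in the same medium and at the same doses. The labels give the exposure to a factor as 3 days in one field and as the whole 7 days in another. The methods of the study state that factors were given from the start and taken away after 3 days. The groups are named here by their factor alone. PA6 is an established line, so its replicates are cultures of the same cells, and RNA of co-cultures came from stromal and ES-derived cells together. A lower keratin signal in such RNA can come from fewer keratin-positive cells or from less RNA per cell, and these cannot be told apart.

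Krt7, Krt8 and Krt18 lie on chromosome 15 and Krt19 on chromosome 11 of the RefSeq annotation of assembly GRCm38.p6. Krt8 and Krt18 are close neighbours, with 2 genes annotated between them, Gm36026 and Gm41404, neither of them protein-coding. The promoter set used held no sequence for Krt19. The 250 bases before the annotated start of the 3 genes on chromosome 15 are shown. They are RefSeq sequences written 5′ to 3′ on the strand of the gene, and capitals mark matches, on either strand, to the GC box of SP1 (GGGCGG), the AP-2 site (GCCNNNGGC), the ETS core (CNGGAA) or the GC-rich SMAD element (GGCGCC). Krt7 is on the forward strand with this stretch at chr15:101412153-101412402, Krt8 on the reverse strand at chr15:102004343-102004592, and Krt18 on the forward strand at chr15:102027966-102028215.
Krt7: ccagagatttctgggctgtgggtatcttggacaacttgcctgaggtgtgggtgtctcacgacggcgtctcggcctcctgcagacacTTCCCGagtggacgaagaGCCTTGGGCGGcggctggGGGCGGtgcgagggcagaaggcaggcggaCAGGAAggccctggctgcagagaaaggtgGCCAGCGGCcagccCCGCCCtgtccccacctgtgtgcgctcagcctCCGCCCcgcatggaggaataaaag
Krt8: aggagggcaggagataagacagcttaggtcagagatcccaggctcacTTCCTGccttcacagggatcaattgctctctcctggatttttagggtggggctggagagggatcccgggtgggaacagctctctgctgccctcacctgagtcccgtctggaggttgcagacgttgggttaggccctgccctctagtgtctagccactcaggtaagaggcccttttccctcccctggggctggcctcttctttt
Krt18: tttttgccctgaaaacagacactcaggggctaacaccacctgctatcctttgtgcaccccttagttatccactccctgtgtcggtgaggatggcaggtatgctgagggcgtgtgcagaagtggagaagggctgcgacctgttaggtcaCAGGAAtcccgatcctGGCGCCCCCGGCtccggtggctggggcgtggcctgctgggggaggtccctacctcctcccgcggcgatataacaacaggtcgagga

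The Krt7 stretch held 4 GC boxes, 2 AP-2 matches and 2 ETS cores, and 1 of the AP-2 matches overlapped a GC box. Krt8 held 1 ETS core, and Krt18 held 1 ETS core and 1 AP-2 match that overlapped its 1 SMAD element. Of 32851 RefSeq promoters cut to the same 250 bases, 32.7% held a GC box, 13.7% an AP-2 match, 54.2% an ETS core and 9.59% the SMAD element, so the ETS core shared by the 3 genes is a common one. The AP-1 site (TGANTCA, in 6.75% of promoters) and the grainyhead site (AACCNGTT, in 1.79%) had no match in these windows. A match is a string of letters and not a measured binding site.

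Arrays read fluorescence of beads, and each value carries a detection p, the share of negative control beads that were brighter. Between 37.3% and 47.0% of probes were detected (detection p under 0.05) on an array. The levels below are background-corrected, quantile-normalized log2 intensities, and each is compared between groups for the same probe. Where a summed level of a list is given, it adds linear intensities of different probes, and the brightest probes weigh most in it. Of 10 stroma markers 8 were lower in -GFs co-cultures than in PA6, and the pluripotency gene POU5F1 was higher in them by 4.14 ± 0.42 (SE, log2). Replicates are called separate by the labels, which give biological replicates, and p-values cover only the spread between these arrays.

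The simple keratins were detected in the co-cultures and not in the stromal line alone. All 4 were detected on 7 of 7 co-culture arrays and on 0 of 9 PA6 arrays, whatever the factor. On PA6 arrays the raw intensities ranged from 139.4 to 259.3 for KRT7, from 126.7 to 252.4 for KRT8, from 105.5 to 156.7 for KRT18 and from 116.6 to 248 for KRT19. The lowest detection p on any PA6 array was 0.0534 for KRT7, just beyond the limit, against 0.288 for KRT18. On co-culture arrays raw intensities reached 734.5, 3870.9, 1632.9 and 945.8 for the same genes in that order.

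**Figure D1:**
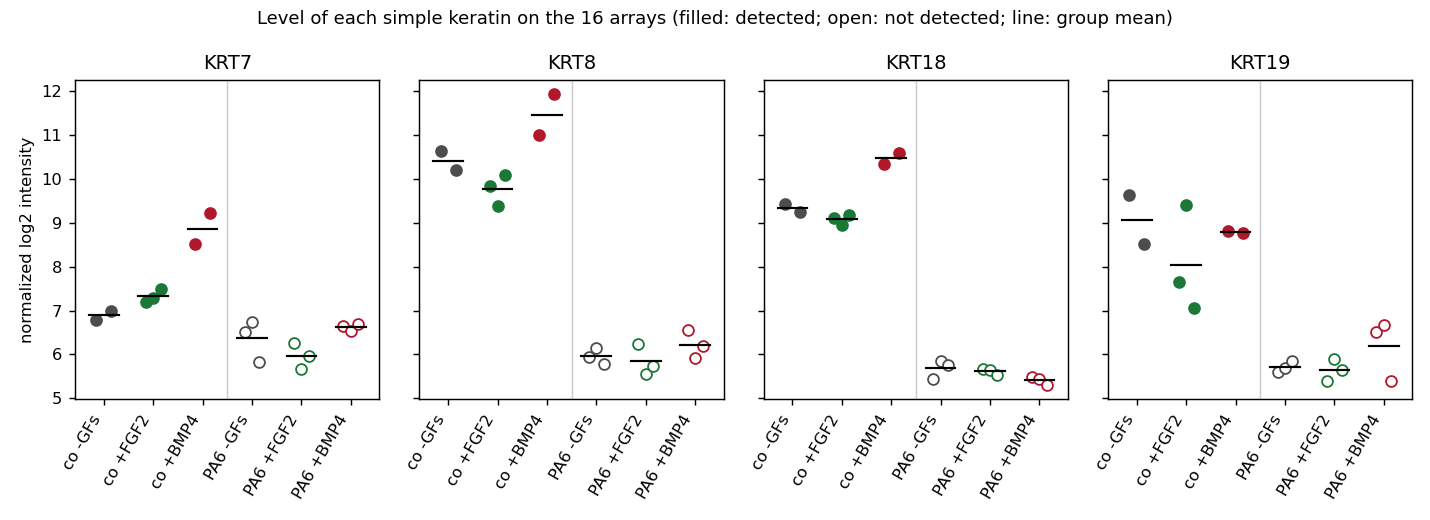
Normalized log2 intensity of KRT7, KRT8, KRT18 and KRT19 (vertical axis) on each of the 16 arrays, by group (horizontal axis), with filled points for detected and open points for undetected probes and a line at each group mean. The points of all 7 co-culture arrays are filled and those of all 9 PA6 arrays open, and BMP4 co-cultures are the highest group for KRT7, KRT8 and KRT18 but not for KRT19.

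Against PA6 without factor, KRT8, KRT18 and KRT19 were higher in -GFs co-cultures and KRT7 was not called. A call needed a limma p, adjusted by Benjamini-Hochberg over 14829 genes, under 0.1 together with a log2 fold change over 1 in either direction. Such calls took in 44.1% of all genes in this comparison, so 3 of 4 members is to be read against a large background. Where a gene was undetected throughout a group, its fold is given as a lower bound against the detection level of those arrays, the lowest signal of any detected probe. KRT8 was at least 13.2-fold higher (adjusted p = 4.26e-08, limma), KRT18 at least 6.26-fold (adjusted p = 3.83e-10) and KRT19 at least 5.18-fold (adjusted p = 0.000138). KRT7 had a mean of 6.89 in co-cultures and 6.37 in PA6, a fitted change of 0.52 ± 0.27 (SE) and an adjusted p of 0.104, with a bound of 1.15-fold.

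In the presence of FGF2 all 4 keratins were called higher in co-cultures than in PA6, where 46.4% of all genes were called. The bounds were 7.77-fold for KRT8, 4.82-fold for KRT18, 2.35-fold for KRT19 and 1.43-fold for KRT7. The call of KRT7 was lost without background correction, with a fitted change of 0.77. In the presence of BMP4 all 4 were called again, with 42.4% of all genes called. The bounds were then 24.4-fold for KRT8, 12.3-fold for KRT18, 4.04-fold for KRT7 and 3.83-fold for KRT19.

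In co-cultures KRT7 and KRT18 were higher with BMP4 than with -GFs, while KRT8 (2.06-fold) and KRT19 (0.827-fold) did not pass the test. KRT7 rose 3.93-fold and KRT18 2.19-fold. These were 2 calls among 4 members, against 3.75% of all genes called in either direction and 2.28% called higher. The median change of the 4 was 1.09, beside -0.0015 for all genes tested. Their changes ranked 185th for KRT7, 559th for KRT18 and 638th for KRT8 among 14829 genes in order of rise, and KRT19 ranked 11493rd.

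KRT7, the type II keratin of ducts and trophoblast, stood at 6.79 and 6.99 on the -GFs arrays, at 7.20, 7.28 and 7.49 on the FGF2 arrays and at 8.50 and 9.22 on the BMP4 arrays. The 3 groups did not overlap, and the BMP4 arrays lay more than 1 log2 unit above the others. The change with BMP4 was 1.97 ± 0.27 (SE, 95% interval 1.34 to 2.61), with an adjusted p of 0.0210 by limma. It was called in all 20 alternatives of this comparison, which include leaving out any of the 7 co-culture arrays. The change ran from 1.61 to 2.33 with an array left out and down to 1.23 over all alternatives, so its size depended on the processing. Raw intensities on the -GFs arrays were 275.3 and 282.1, near the limit of detection.

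KRT18, the type I partner of KRT8, stood at 9.42 and 9.25 on the -GFs arrays, at 9.11, 8.94 and 9.17 with FGF2 and at 10.35 and 10.59 with BMP4. The BMP4 arrays were again above all others, and the FGF2 arrays all lay below the -GFs arrays by a small step. The change with BMP4 was 1.13 ± 0.19 (95% interval 0.67 to 1.59, adjusted p = 0.0398, limma). This call sat close to both limits. It was lost without -GFs replicate 1 (1.22, adjusted p = 0.110), -GFs replicate 2 (1.04, adjusted p = 0.152), BMP4 replicate 1 (1.26, adjusted p = 0.141) or BMP4 replicate 2 (1.01, adjusted p = 0.152), with median scaling (1.18, adjusted p = 0.111), without background correction (0.98) and with the replicate number as a block (1.13, adjusted p = 0.116). The change was positive in each of these, and KRT18 had the smallest spread between replicates of the 4, an SD of 0.14 within groups.

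KRT8, the type II partner of KRT18, stood at 10.63 and 10.20 on the -GFs arrays, at 9.82, 9.38 and 10.08 with FGF2 and at 10.99 and 11.92 with BMP4. The groups did not overlap, in the order FGF2, -GFs, BMP4 from low to high, but the 2 BMP4 arrays lay 0.93 apart. The change over -GFs was 1.04 ± 0.37 (95% interval 0.17 to 1.91), with an unadjusted p of 0.0251 and an adjusted p of 0.245 by limma. It ran from 0.57 without BMP4 replicate 2 to 1.51 without BMP4 replicate 1. It was called when all 16 arrays entered the same fit (adjusted p = 0.0987). Groups that do not overlap upward made up 22.8% of all genes in this comparison, and KRT7, KRT8 and KRT18 were among them.

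KRT19 varied more between replicates than between groups. It stood at 9.62 and 8.51 on the -GFs arrays, at 7.65, 9.41 and 7.05 with FGF2 and at 8.80 and 8.78 with BMP4. The FGF2 arrays alone spanned the range from the lowest to almost the highest value, while the BMP4 arrays were nearly equal. The SD within groups was 0.95, larger than that of 98.9% of genes tested, beside 0.28 for KRT7, 0.44 for KRT8 and a median of 0.27 over all genes. The change with BMP4 over -GFs was -0.27 ± 0.73 (adjusted p = 0.934, limma), and it turned to 0.28 without -GFs replicate 1. Its 95% interval ran from -1.99 to 1.44, so that neither a rise nor a fall of more than 2-fold was outside it.

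With FGF2 none of the 4 keratins was called, and their changes over -GFs did not share a direction. Of all genes 7.42% were called in this comparison, and 0 of the 4 members had an unadjusted p under 0.05 (limma), as 22.7% of genes did. KRT7 changed by 0.43 ± 0.25 (adjusted p = 0.351), KRT8 by -0.65 ± 0.34 (adjusted p = 0.307), KRT18 by -0.26 ± 0.18 (adjusted p = 0.437) and KRT19 by -1.03 ± 0.67 (adjusted p = 0.418). The FGF2 and -GFs arrays did not overlap for KRT7, which was higher with FGF2 as were 17.6% of genes, nor for KRT8 and KRT18, which were lower as were 22.1%. Without FGF2 replicate 2, the array with the high KRT19 value, KRT19 passed the threshold at -1.71 (adjusted p = 0.0883). The 95% intervals on the log2 scale reached down to -2.59 for KRT19 and -1.45 for KRT8 and up to 1.01 for KRT7, so that changes of more than 2-fold were not outside them.

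**Figure D2:**
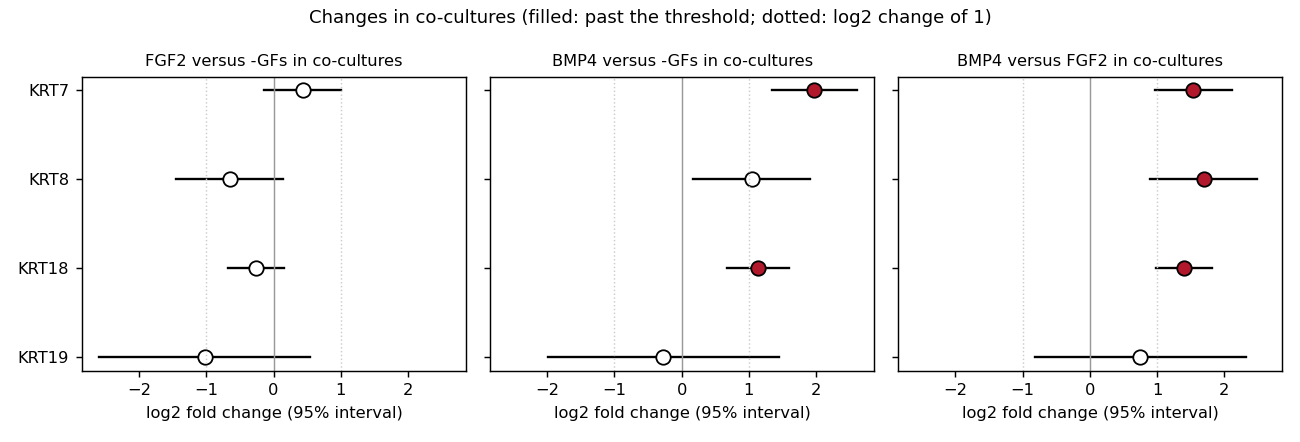
Fitted log2 fold change (horizontal axis, point) with its 95% interval (bar) for each keratin in the 3 co-culture comparisons, filled where the gene passed the threshold. KRT7 and KRT18 are filled for BMP4 versus -GFs, KRT7, KRT8 and KRT18 for BMP4 versus FGF2 and none for FGF2 versus -GFs, and the intervals of KRT19 are the widest.

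The growth factors were also set against each other, and KRT7, KRT8 and KRT18 were higher with BMP4 than with FGF2. These 3 calls of 4 stood beside 1.44% of all genes called and 0.755% called higher. KRT8 showed the largest difference, 1.69 ± 0.34 or 3.24-fold (adjusted p = 0.0967, limma), the 79th largest rise of 14829. KRT7 differed by 1.54 ± 0.25 (adjusted p = 0.0633) and KRT18 by 1.40 ± 0.18 (adjusted p = 0.0350). KRT19 differed by 0.75 ± 0.67 (adjusted p = 0.685), and its BMP4 values fell inside the range of the FGF2 arrays. This comparison uses the same BMP4 arrays as the one with -GFs, so it is no second measurement of the BMP4 effect.

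The calls between the factors rested on few arrays. Without FGF2 replicate 2 or without BMP4 replicate 2 no keratin was called, and without FGF2 replicate 1 or FGF2 replicate 3 only KRT18 was. KRT18 was called with 5 of the 7 arrays left out in turn, KRT7 with 3 and KRT8 with 1, and that of KRT8 came without BMP4 replicate 1, at 2.16. Leaving out either -GFs array, which enters the fit through the shared spread, also ended the call of KRT8 (adjusted p = 0.119 in both). With an adjusted p limit of 0.05, or with no filter on detection, only KRT18 was called, and cyclic loess ended the call of KRT8 (adjusted p = 0.109). The replicate number as a block ended all 3 calls, with adjusted p = 0.145 for KRT7 and KRT18 and 0.179 for KRT8 (limma). The differences themselves kept their sign throughout, between 1.18 and 1.90 for KRT7, between 1.23 and 2.16 for KRT8 and between 1.27 and 1.52 for KRT18 when an array was left out.

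**Figure D3:**
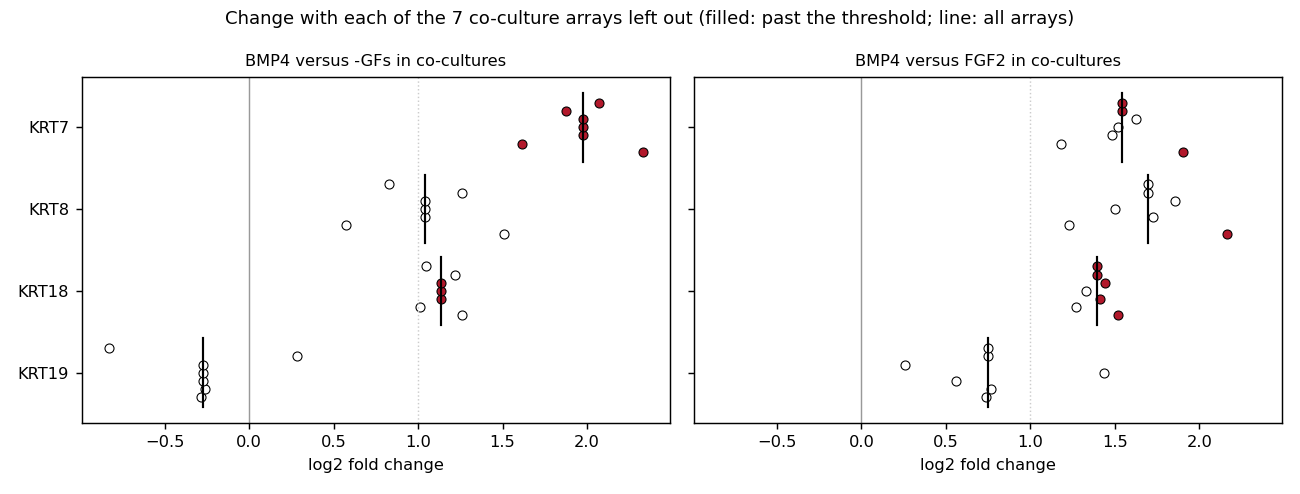
Log2 fold change (horizontal axis) of each keratin with each of the 7 co-culture arrays left out in turn (points, filled where the threshold was passed), with a line at the value from all arrays. All 7 points of KRT7 are filled for BMP4 versus -GFs and 3 of 7 for KRT18, while for BMP4 versus FGF2 the filled points number 3 for KRT7, 1 for KRT8 and 5 for KRT18.

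In PA6 mono-cultures no factor comparison called a keratin, and since the 4 probes were undetected in all 3 groups no fold is given. Calls were rare there in general, at 0.027% of genes for FGF2, 0% for BMP4 and 0.31% for BMP4 against FGF2. KRT7 between BMP4 and FGF2 had an unadjusted p of 0.0242 (limma), and 9.27% of genes were under 0.05 there. The difference of the BMP4 change between co-cultures and PA6 was tested directly and was called for KRT7 (1.72 ± 0.38, adjusted p = 0.0268, limma) and KRT18 (1.40 ± 0.22, adjusted p = 0.00327), where 4.23% of genes were called. The PA6 side of that difference is a difference of background signals, 0.25 for KRT7 and -0.27 for KRT18, and the latter sets the value of KRT18 above its co-culture change of 1.13. For KRT8 it was 0.78 ± 0.43 (adjusted p = 0.423) and for KRT19 -0.74 ± 0.79 (adjusted p = 0.720). The call of KRT7 was lost without BMP4 co-culture replicate 2 (1.36, adjusted p = 0.105). The same difference for FGF2 was called for 0 of 4 members, with KRT7 at an unadjusted p of 0.0372 (21.8% of genes were under 0.05), against 7.9% of genes called. KRT7 was called without PA6 -GFs replicate 3 (1.09, adjusted p = 0.0700). The PA6 side of the FGF2 difference is background signal too, with KRT7 means of 5.97 with FGF2 and 6.37 with -GFs.

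Across the 7 co-culture arrays KRT8 and KRT18 followed each other most closely of the 4. Their Pearson correlation was 0.942 and their Spearman rho 1, and KRT18 ranked 26th among 14828 genes by correlation with KRT8. KRT7 correlated with KRT18 at 0.898 and with KRT8 at 0.788, and KRT19 with the others at 0.0013 to 0.213. These values are descriptions over 7 arrays in 3 groups, so a shared shift between groups enters them. The genes most like KRT7 were FXYD3 (r = 0.993), HOXC9 (r = 0.991), a posterior homeobox gene, and BARX2 (r = 0.987), a homeobox gene. FXYD3 and BARX2 were detected on 2 of 7 co-culture arrays, those with BMP4, so their likeness rests on background signal elsewhere. HOXC9 was undetected with -GFs and at least 16-fold higher with BMP4 (adjusted p = 0.0170, limma). Those most like KRT18 were DLX3 (r = 0.989), a homeobox factor of placenta and epidermis, TMEM189 (r = 0.986) and FOXI1 (r = 0.985), a forkhead factor that was likewise detected on the BMP4 arrays alone. DLX3 was called with BMP4 at 1.45 ± 0.17 (adjusted p = 0.0132). HOXC9 and DLX3 were chosen for their likeness to a keratin over these same arrays, so their calls with BMP4 restate that choice. Those most like KRT8 were LOC381941 (r = 0.978), CHST14 (r = 0.974) and 2810043G13RIK (r = 0.969), detected on 5, 5 and 4 of 7 arrays, and those most like KRT19 were 2310047D13RIK (r = 0.970), LOC545056 (r = 0.955) and KCNE1L (r = 0.940).

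Most other keratins on the array did not pass the detection filter. Of 55 keratin names on the array 17 passed the detection filter, 7 were detected on every co-culture array and 3 on every array of at least 1 PA6 group. The 13 that are not members held 5 calls with FGF2, all higher, namely KRT1-12, KRT12, KRT17, KRT23 and KRT42, and 3 with BMP4, all higher, namely KRT14, KRT15 and KRT17. Of all genes 7.42% were called with FGF2 and 3.75% with BMP4. KRT5, KRT14, KRT15 and KRT33A passed the filter through the BMP4 co-cultures alone, a choice that favours higher values with BMP4. KRT1-12, KRT12 and KRT42 were named after their values were seen. Among the stratified keratins, of which 5 of 10 on the array were tested, BMP4 raised KRT14, the basal keratin of stratified epithelium, by at least 110-fold over -GFs arrays on which it was undetected (adjusted p = 0.0174, limma), and KRT15, another basal keratin, by 6.25 ± 0.33 on the log2 scale (adjusted p = 0.000741). KRT15 was detected on 1 of the 2 -GFs arrays, near the detection level, so its change is not an exact size. KRT5, the partner of KRT14, was detected on both BMP4 arrays alone among co-cultures, at least 1.15-fold above -GFs, and was not called (adjusted p = 0.265). The summed level of the 5 stratified keratins ran from 13900 to 29773 on BMP4 arrays, against 2627 to 2714 with -GFs and 1948 to 2439 with FGF2. KRT10 was the brightest of the 5 with -GFs (mean 11.22) and with FGF2, and PA6 without factor showed it at a like level (mean 11.19). The sum on those PA6 arrays was 2358 to 2753. The summed level was highest on the same arrays as KRT7, KRT8 and KRT18, and its part in their change was not tested. KRT23, a simple-type keratin, was called with FGF2 (2.32 ± 0.65, adjusted p = 0.0870) where no member was, and had a change of 2.27 ± 0.71 with BMP4 (adjusted p = 0.189).

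Of 8 genes tested whose proteins link or bind keratin filaments, among them desmosomal proteins, 2 were called higher with FGF2 and 4 with BMP4, with none called lower. Desmoplakin (DSP), which ties keratins to the desmosome, was undetected with -GFs and rose at least 4.33-fold with BMP4 (adjusted p = 0.00141, limma), and it was also called higher with BMP4 than with FGF2 (2.16 ± 0.16, adjusted p = 0.00390), where 1 of the 3 FGF2 arrays detected it. The DSP probe used passed the detection filter through the BMP4 co-cultures alone, a choice that favours higher values with BMP4. Plakophilin 3 (PKP3) rose at least 5.04-fold with BMP4 (adjusted p = 0.0110) and at least 1.88-fold with FGF2 (adjusted p = 0.0329). Desmoglein 2 (DSG2), the desmosomal cadherin of simple epithelia, rose in both, by 2.29 ± 0.33 with FGF2 and 2.32 ± 0.36 with BMP4, and the difference between them was 0.03 ± 0.33 (adjusted p = 0.981). The median fitted change of the list was 0.65 with FGF2 and 1.001 with BMP4, or 0.26 and 0.57 with genes undetected on the -GFs arrays at their lower bound.

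Markers of simple epithelium were called with FGF2 as well as with BMP4. Of 17 on the array 14 were tested, and EPCAM and OCLN were detected on 0 of 7 co-culture arrays. Of the 14 tested, 5 were called higher with FGF2 and 4 with BMP4 and none lower, with median changes of 0.42 (0.30 with 1 undetected gene at its bound) and 0.89. E-cadherin (CDH1), the adhesion molecule of epithelia and of undifferentiated ES cells, rose by 2.37 ± 0.37 with FGF2 (adjusted p = 0.0169, limma), and its change with BMP4 was 1.65 ± 0.41 (adjusted p = 0.107). The polarity gene LLGL2 rose by 2.04 ± 0.27 with FGF2 (adjusted p = 0.0102). Claudin 4 (CLDN4), a tight junction protein, rose by 1.93 ± 0.27 with FGF2 (adjusted p = 0.0111) and by 2.10 ± 0.29 with BMP4 (adjusted p = 0.0228). Claudin 6 (CLDN6) rose by 1.90 ± 0.23 with BMP4 (adjusted p = 0.0156) and was the 1 gene of the list higher with BMP4 than with FGF2 (1.08 ± 0.21, adjusted p = 0.0967). The summed level of the list was 6393 to 8918 with -GFs, 18253 to 26130 with FGF2 and 18007 to 21318 with BMP4. The -GFs arrays lay below those of both factors. LLGL2 and SPINT1 were the brightest of the list in each co-culture group and so weigh most in the sum, and PA6 cells also showed both on 9 of 9 arrays. Whether this list differed from the keratins was not tested.

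**Figure D4:**
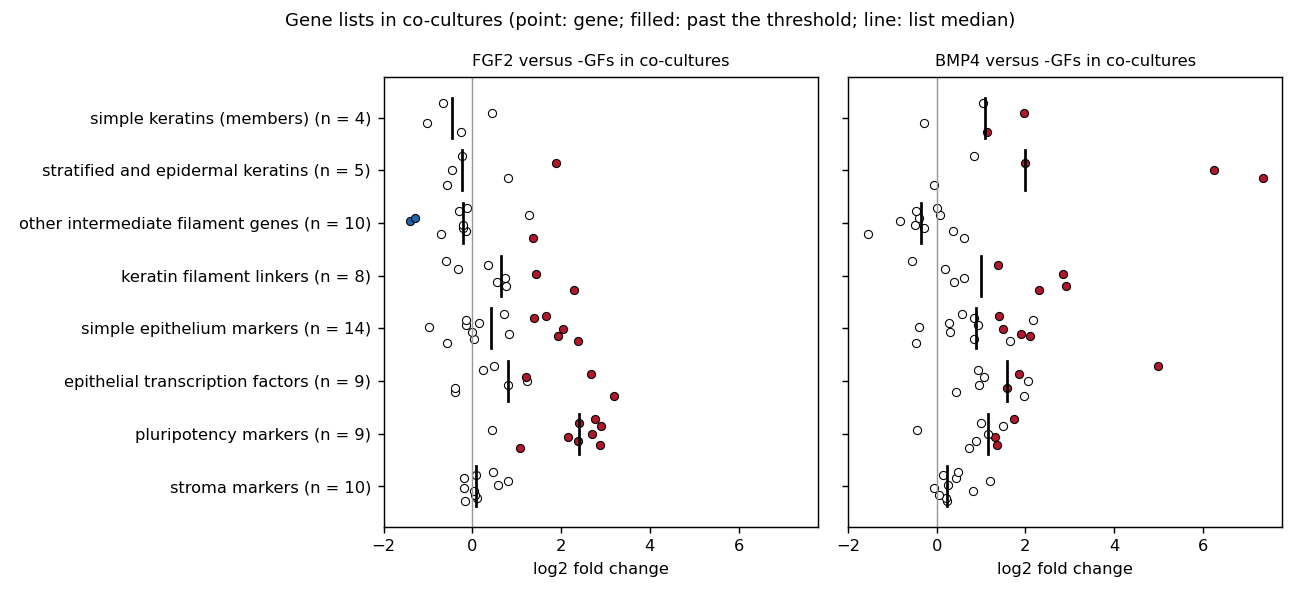
Fitted log2 fold change (horizontal axis) of each tested gene (point, filled where it passed the threshold) in 8 gene lists, for FGF2 and for BMP4 versus -GFs in co-cultures, with a line at each list's median. The 4 simple keratins have a median of -0.46 with FGF2 and 1.09 with BMP4, and the points furthest to the right with BMP4 are KRT14, KRT15 and TRP63.

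Of 10 other intermediate filament genes tested, 1 rose and 2 fell with FGF2, and none was called with BMP4, where INA had the largest change (-1.56 ± 0.38, adjusted p = 0.104, limma). The neurofilament gene NEFM fell by 1.41 ± 0.22 (adjusted p = 0.0174) and nestin (NES), of neural progenitors, fell by 1.29 ± 0.23 (adjusted p = 0.0248) with FGF2. Desmin (DES), the filament of muscle, rose by 1.36 ± 0.36 (adjusted p = 0.0741). Vimentin (VIM) changed by -0.12 ± 0.18 with FGF2 and by 0.02 ± 0.19 with BMP4.

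Of 9 epithelial transcription factors tested, 3 rose with each factor, and the genes were not all shared. ELF3, an ETS factor of epithelia, rose by 3.19 ± 0.47 with FGF2 (adjusted p = 0.0135, limma) and KLF5, of ES cells and epithelia, by 2.67 ± 0.34 (adjusted p = 0.00918). With BMP4 KLF5 was called as well (1.86 ± 0.37, adjusted p = 0.0610) and ELF3 was not (1.96 ± 0.51, adjusted p = 0.123). TRP63, the master factor of stratified epithelium, was undetected with -GFs and rose at least 20.3-fold with BMP4 (adjusted p = 0.00251), while PA6 cells alone showed it on 8 of 9 arrays. GATA3, of trophoblast and surface ectoderm, rose by 1.58 ± 0.28 with BMP4 (adjusted p = 0.0410) and was detected on 5 of 9 PA6 arrays. TRP63 and GATA3 were also the 2 of the list higher with BMP4 than with FGF2, by 4.51 ± 0.31 (adjusted p = 0.00292) and 1.97 ± 0.25 (adjusted p = 0.0353). Among 6 genes of ETS2 and AP-1, FOS rose by 1.05 ± 0.23 with FGF2 (adjusted p = 0.0469) and by 1.23 ± 0.26 with BMP4 (adjusted p = 0.0682), and no other was called.

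Markers of other keratin-bearing cells were examined beside these changes. Of 11 trophoblast markers on the array 1 passed the detection filter, RHOX5, which PA6 cells also showed on 6 of 9 arrays and which rose by 2.31 ± 0.21 with FGF2 (adjusted p = 0.00451, limma) and by 1.40 ± 0.22 with BMP4 (adjusted p = 0.0328). By any of their probes, ELF5, HAND1, GCM1 and TPBPA were detected on 0 of 7 co-culture arrays, and CDX2, EOMES, ASCL2, PRL3D1, PRL3B1 and PLAC1 on 1 each. None of the 5 mesothelium markers on the array passed, and MSLN was detected on 0 of 7. Of 5 extraembryonic endoderm markers tested, AMN was called with FGF2 (1.35 ± 0.30, adjusted p = 0.0458) and SOX17, which endothelium also expresses, with BMP4 (undetected with -GFs and at least 2.43-fold higher, adjusted p = 0.0109). The SOX17 probe used passed the detection filter through the BMP4 co-cultures alone. TTR was detected on 0 of 7 co-culture arrays and AFP on 1. The summed level of the 5 was 1187 to 1430 with -GFs, 1141 to 1578 with FGF2 and 1922 to 2404 with BMP4. GATA6, which PA6 cells also express, made up 65.3% to 74.5% of it on co-culture arrays and changed by 0.65 ± 0.27 with BMP4 (adjusted p = 0.324). The other 4 genes summed to 327.7 to 365.2 with -GFs, 385 to 519.1 with FGF2 and 623.5 to 663.6 with BMP4, and the part of the list in the keratin changes was not tested.

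The other lists describe the cultures in which the keratins were measured. Of 9 pluripotency markers 8 rose with FGF2 and 3 with BMP4, and 2 were lower with BMP4 than with FGF2. Of 9 neural markers on the array 6 were tested, and 3 fell with FGF2 and 4 with BMP4. Of 8 endothelial markers on the array 4 were tested, and 2 rose with each factor. The endothelial genes CDH5, KDR, TIE1 and ICAM2 and the neural genes SOX1, PAX6 and TUBB3 did not pass the detection filter. The 10 stroma markers held no call in any co-culture comparison, with summed levels of 62702 to 68613 with -GFs, 61629 to 68586 with FGF2 and 65000 to 80965 with BMP4. The part of these shifts in the keratin changes was not tested.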

How the data were processed

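Average bead intensities of MouseWG-6 v2.0 BeadChips were deposited without normalization, with a detection p-value per probe in the deposited table; the authors made them with GenomeStudio 2011.01, and their cubic spline values were not used here. No genome build is named in the table. Intensities of 16 arrays were background corrected from the detection p-values, quantile normalized and put on the log2 scale with an offset of 16 (neqc, limma 3.58.1, R 4.3.3). Probes were kept if all arrays of any 1 group showed them at a detection p under 0.05, and the brightest probe stood for a gene, leaving 14829 genes. Limma models were fitted to the 7 co-culture or 9 PA6 arrays, and to all 16 for comparisons across cultures and for differences of effects. Calls needed an adjusted p under 0.1 and a log2 change over 1, the thresholds of the study. Errors are SD between arrays or SE of a change. The depth behind an array value is not a count, and the number of arrays limits precision. The fits were tested on simulated data. The most alike genes are the 3 with the highest Pearson correlation with a member, and list genes are named for the 2 largest calls in each direction or as defining markers. Members and lists were chosen with earlier results of these data known. Alternatives covered normalization, background correction, offset, detection filter, probe rule, thresholds, variance prior, 1 fit of all arrays, the replicate number as a block and each array left out. A block of column runs, the 3 runs in which columns stand in the table, was added after the data were seen.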

Additional observations from a re-analysis of the deposited data

Results flagged for a closer look

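The difference of the BMP4 effect between co-cultures and PA6 stood out for KRT7 (1.72 ± 0.38 on the log2 scale, adjusted p = 0.0268) and for KRT18 (1.40 ± 0.22, adjusted p = 0.00327), each tested as an interaction in limma over all 16 arrays. Both genes were undetected on all 9 PA6 arrays, so the values set a measured co-culture change (1.97 and 1.13) against a difference of background signals (0.25 and -0.27) and are not exact sizes.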

How the results depend on the processing

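The replicate number used as a block left 1 of the 2 calls for BMP4 versus -GFs (KRT7; KRT18 had an adjusted p of 0.116) and 0 of the 3 for BMP4 versus FGF2, and changed no other count. Same-numbered co-culture arrays did not deviate together (correlations of deviations from -0.199 to 0.283, 1 of 6 over 0.1). Those in PA6, where number and column run coincide, did weakly (0.0697 to 0.199, 7 of 9 over 0.1), as did co-culture arrays of 1 column run (0.0976 to 0.283, 4 of 5). No source states what a number or run shares, and the fits without a block were kept. The count for BMP4 versus -GFs was also 1 with median scaling and without background correction. The count for BMP4 versus FGF2 was 1 without the detection filter and 1 at an adjusted p under 0.05. With an array left out the counts ran from 0 to 1 for FGF2 versus -GFs, from 1 to 2 for BMP4 versus -GFs, from 0 to 3 for BMP4 versus FGF2, from 0 to 1 for the difference of the FGF2 effect between cultures and from 1 to 2 for that of BMP4. KRT19 ran from -0.83 to 0.28 for BMP4 versus -GFs with an array left out (-0.27 with all) and turned without -GFs replicate 1, and the cause was not tested. Under median scaling the median change of all genes was -0.21 for FGF2 versus -GFs and 0.29 for BMP4 versus FGF2, beside -0.057 and 0.039 as reported. Relative to the median under that scaling KRT18 differed by 1.26 in the latter. With the block of column runs, chosen after the data were seen, KRT8 was called for BMP4 versus -GFs (1.42, adjusted p = 0.0967). Of 800 changes recomputed, 766 kept their direction and side of the threshold, 29 lost their call, 4 gained one and 1 turned. A filter for detection on all 16 arrays left none of the 4 genes and gave no value. Signal over background limits KRT7 in -GFs co-cultures, which was 1.15-fold above the detection level of PA6 arrays.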
